A study of Mus musculus with 11 samples.

Results

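The respiratory chain subunits were taken as every protein-coding gene whose symbol names a structural subunit of complexes I to V, or that is encoded by mitochondrial DNA. The rule found 101 genes among the 56748 genes of the count table, of which 88 are nuclear and 13 are mitochondrial. The nuclear genes comprised 37 for complex I, 4 for complex II, 9 for complex III, 20 for complex IV and 18 for complex V. The mitochondrial genes comprised 7 for complex I, 1 for complex III, 3 for complex IV and 2 for complex V. Ndufa4, a former complex I name, is counted here with complex IV, where its protein is now placed.

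The subunits were measured by polyA RNA sequencing in tailbud tissue dissected from mouse embryos at embryonic day 8.5, which the labels describe as mesoderm with neuromesodermal progenitors. There were 4 libraries from the Fgfr1 FCSPG line, 3 from the Fgfr1 FCPG line and 4 from wild-type (WT) embryos. In both lines the receptor FGFR1 carries point mutations in residues that bind its signalling effectors, so that FGF signalling can be studied with and without its canonical arm in early mesoderm. The labels give no strain, zygosity, embryo sex or pooling of embryos, and do not spell out the letters of the allele names. Libraries are named by the number in their column. P-values measure the spread between these libraries, since nothing says that each came from a separate embryo.

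The respiratory chain passes electrons from NADH at complex I, or from succinate at complex II, through complex III to oxygen at complex IV. Complexes I, III and IV pump protons out of the mitochondrial matrix, and complex V, the ATP synthase, uses their return to make ATP. Nuclear genes encode most subunits, all those of complex II included, while mitochondrial DNA encodes hydrophobic core subunits of the other complexes. The balance between the products of both genomes is therefore a property that cells keep under control.

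Total counts were between 16014698 and 25453070 per library. Fgfr1 itself averaged 19.3 ± 3.99 RPKM in FCSPG (SD, n = 4), 20.4 ± 3.60 RPKM in FCPG (n = 3) and 19.5 ± 1.90 RPKM in WT (n = 4), and a point mutation cannot be read from such a level. RPKM here is CPM, the count scaled to library size by edgeR's TMM method, per kilobase of the deposited gene length. Neuromesodermal markers were present in every library, at 876 to 1410 summed CPM in FCSPG, 278 to 1327 in FCPG and 732 to 1214 in WT. Several marker lists differed in range between the groups, and their part in the results was not tested. Presomitic mesoderm summed to 150 to 190 CPM in FCSPG, 40.3 to 313 CPM in FCPG and 274 to 400 CPM in WT, and endothelium to 145 to 257, 134 to 447 and 258 to 328 CPM in the same order. Primitive blood summed to 37.1 to 375, 2.61 to 183 and 250 to 3085 CPM, and surface ectoderm to 943 to 1362, 807 to 1598 and 481 to 958 CPM. Of visceral endoderm, an extraembryonic tissue that covers the early embryo, all 16 markers of the list were detected. Their summed level was 784 to 3798 CPM in FCSPG, 1603 to 16780 CPM in FCPG and 125 to 1123 CPM in WT. Xist and Y-linked counts read FCSPG library 32 and FCPG libraries 19 and 45 as male and the others as female. In tissue of several cell types, more transcript per cell and more cells of a type cannot be told apart.

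No gene of the 16572 tested passed an adjusted p of 0.05 in edgeR's quasi-likelihood test in any of the 3 comparisons, so the background share of genes called was 0% in each. Unadjusted p-values under 0.05 were given to 1823 genes for FCSPG over WT, 3624 for FCPG over WT and 1897 for FCSPG over FCPG. DESeq2's Wald test on the same 3 groups called 41, 1477 and 1 genes in these comparisons, and limma-voom called 0 in each. Of the 101 subunits, 95 had enough counts to be tested, 83 nuclear and 12 mitochondrial, and neither edgeR, DESeq2 nor limma-voom called any of them. What follows therefore describes levels and fold changes that did not pass the adjusted test.

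In FCSPG tailbuds, 79 of the 83 tested nuclear subunits had a log2 fold change above 0 over WT, where 49.9% of all genes tested did. Short genes did so more often. With coding lengths under 400 bases, 74.6% of other genes and 37 of 38 subunits were above 0. From 400 to under 800 bases, 67.3% of other genes and 28 of 29 subunits were. The median log2 fold change of the nuclear subunits was 0.37, against -0.00060 over all genes tested, and the values lay between -0.19 for Cox4i2 and 1.08 for Cox7a1. An unadjusted p under 0.05 with a higher level in FCSPG was given to 39 of the 83, against a background of 6.24% of all genes, and to 0 with a lower level, against 4.76%. For 21 of the 83, every FCSPG library lay above every WT library, against 4.00% of all genes tested, and for 0 every FCSPG library lay below, against 3.35%. Both higher counts stand well above the share of all genes tested. The shares among other genes of like coding length were not computed. The smallest adjusted p of any subunit was 0.446.

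The library values show how the groups lie. Summed over the 88 nuclear genes, FCSPG libraries 13, 27, 30 and 32 held 14121, 11561, 9796 and 11843 CPM, FCPG libraries 19, 45 and 46 held 11107, 12434 and 9604 CPM, and WT libraries 24, 25, 26 and 33 held 9710, 9921, 9077 and 10276 CPM. FCSPG library 30 lay inside the WT range and library 13 was the highest of all. Without library 13 the count with an unadjusted p under 0.05 was 16 and the median was 0.22. Without library 30 these were 51 and 0.43. Of all genes tested, 369 of 16461 and 1400 of 16434 were higher at such a p in these settings, against 1034 of 16572 with all libraries. The visceral endoderm markers of FCSPG libraries 13, 27, 30 and 32 summed to 3492, 1889, 784 and 3798 CPM. With the mean log2 level of these markers as a covariate, the median was 0.155 and 1 subunit kept an unadjusted p under 0.05. Under this covariate 99 of all 16572 genes tested were higher at such a p, against 1034 without it.

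**Figure D1:**
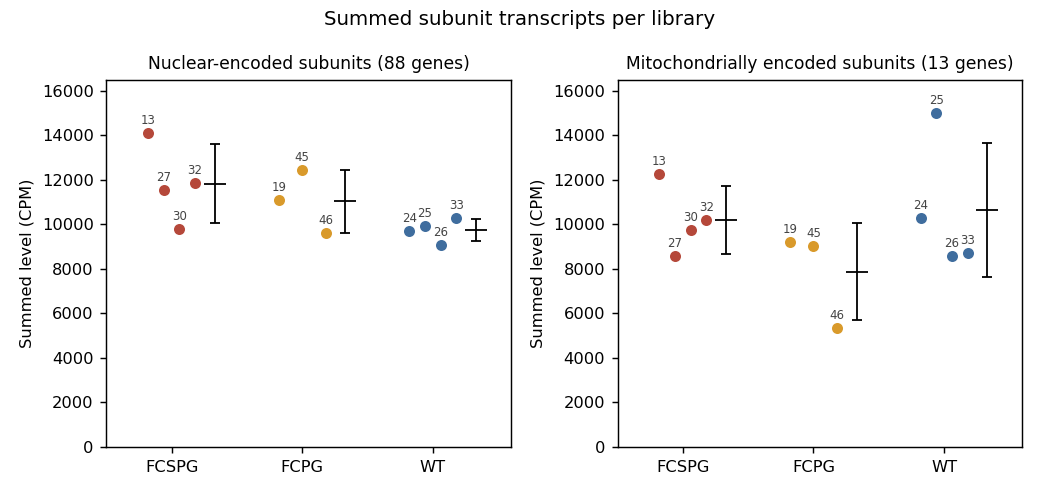
Summed CPM of the nuclear-encoded (left) and mitochondrially encoded (right) subunits in each library, labelled by its number, with the group mean and SD as a bar. For the nuclear genes 3 of the 4 FCSPG libraries lie above all WT libraries, and for the mitochondrial genes WT library 25 is highest and FCPG library 46 is lowest.

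All nuclear complexes had a median above 0 in FCSPG over WT. The median log2 fold change was 0.38 for complex I (35 of 37 above 0), 0.20 for complex II (4 of 4), 0.38 for complex III (8 of 9), 0.37 for complex IV (15 of 16 tested) and 0.35 for complex V (17 of 17 tested). An unadjusted p under 0.05 with a higher level was given to 15, 2, 5, 9 and 8 of them, against 6.24% of all genes. Within the complexes the parts had different medians, and the differences between parts were not tested. Several parts also differ in coding length, and log2 fold change went with coding length across the nuclear subunits (Spearman's rho = -0.724 in FCSPG over WT). In complex III, for one, coding lengths are 168 to 333 bases in the small subunits and 822 to 1440 bases in the larger ones. Part and length were not separated here.

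In complex I, the 7 core subunits encoded in the nucleus, which carry the flavin and iron-sulphur clusters, had a median of 0.18, and the 30 accessory subunits around them had a median of 0.40. Ndufb3, an accessory subunit of the membrane arm, had 102, 70.3, 61.2 and 71.4 RPKM in FCSPG, 69.2, 66.3 and 52.2 RPKM in FCPG, and 47.9, 53.2, 37.2 and 57.4 RPKM in WT. The FCSPG libraries lay above all WT libraries and overlapped those of FCPG. The log2 fold change was 0.64 ± 0.18 (SE) over WT, with an adjusted p of 0.446 in edgeR. Ndufa6, an accessory subunit of the matrix arm, had 50.6, 47.8, 38.3 and 42.7 RPKM in FCSPG, 38.1, 38.9 and 35.05 RPKM in FCPG, and 33.1, 35.8, 32.0 and 35.4 RPKM in WT. Its log2 fold change was smaller, 0.40 ± 0.10 in FCSPG over WT, and its WT libraries lay within 32.0 to 35.8 RPKM. At the other end, Ndufs1, the largest core subunit and a carrier of iron-sulphur clusters, had 14.03, 12.1, 10.9 and 15.2 RPKM in FCSPG, 15.4, 19.3 and 14.2 RPKM in FCPG, and 12.04, 12.6, 14.3 and 14.8 RPKM in WT. Its groups overlapped, with log2 fold changes of -0.04 ± 0.13 in FCSPG over WT and -0.32 ± 0.14 in FCSPG over FCPG, and adjusted p-values of 0.917 and 0.435 in edgeR. Ndufs1 was the 1 subunit with an unadjusted p under 0.05 in the lower direction in any comparison.

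Complex II also belongs to the citric acid cycle. Its catalytic subunits Sdha, which holds the flavin, and Sdhb, which holds the iron-sulphur clusters, had log2 fold changes of 0.07 ± 0.14 and 0.03 ± 0.10 in FCSPG over WT. The membrane anchors Sdhc and Sdhd had 0.34 ± 0.15 and 0.43 ± 0.18. Sdhd had 157, 115, 96.5 and 132 RPKM in FCSPG, 108, 174 and 101 RPKM in FCPG, and 92.7, 92.2, 88.1 and 97.7 RPKM in WT. All FCPG libraries and all but FCSPG library 30 lay above every WT library. The log2 fold change of Sdhd in FCPG over WT was 0.46 ± 0.20, with an adjusted p of 0.201 in edgeR, the smallest of any subunit in that comparison.

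In complex III, all 5 small subunits had an unadjusted p under 0.05 in FCSPG over WT, with a median log2 fold change of 0.57, and in 4 of them the FCSPG libraries lay above all WT libraries, against 6.24% and 4.00% of all genes. These shares are over genes of all coding lengths. The 4 larger subunits, the core proteins Uqcrc1 and Uqcrc2, cytochrome c1 (Cyc1) and the Rieske iron-sulphur protein (Uqcrfs1), had a median of 0.18 and none had an unadjusted p under 0.05. Uqcr11 had 177, 141, 113 and 119 RPKM in FCSPG, 120, 127 and 88.5 RPKM in FCPG, and 94.6, 99.3, 74.1 and 84.2 RPKM in WT. Uqcr10 had 301, 236, 191 and 201 RPKM in FCSPG, 182, 191 and 144 RPKM in FCPG, and 163, 159, 117 and 166 RPKM in WT. In both genes the FCSPG libraries lay above every WT library, and in Uqcr10 above every FCPG library as well. The log2 fold changes over WT were 0.64 ± 0.17 for Uqcr11 and 0.62 ± 0.17 for Uqcr10, with an adjusted p of 0.446 in edgeR for each. Uqcrc2 had -0.03 ± 0.11, and its mean level was 61.5 ± 6.51 RPKM in FCSPG, 71.1 ± 10.4 RPKM in FCPG and 62.7 ± 4.45 RPKM in WT (SD, n = 4, 3 and 4).

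In complex IV, Cox8a and Cox7c, small membrane subunits at the edge of the enzyme, had the smallest p-values in FCSPG over WT. Cox8a had 396, 290, 244 and 282 RPKM in FCSPG, 241, 304 and 204 RPKM in FCPG, and 194, 205, 189 and 204 RPKM in WT. Cox7c had 259, 197, 176 and 176 RPKM in FCSPG, 168, 150 and 132 RPKM in FCPG, and 135, 133, 102 and 156 RPKM in WT. In both, all FCSPG libraries lay above all WT libraries, and in Cox7c also above all FCPG libraries. The log2 fold changes over WT were 0.62 ± 0.16 for each, with an adjusted p of 0.446 in edgeR. Of 50-base words of Cox7c transcripts, 22.1% also occur in transcripts of other genes, so its level is uncertain.

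In complex V, the 5 subunits of the F1 head had a median of 0.26 in FCSPG over WT, the 4 of the peripheral stalk 0.22, the 3 genes of the c ring 0.44 and the 5 small membrane subunits 0.48. Atp5b, the catalytic beta subunit and the nuclear subunit with the highest RPKM, had 369, 331, 270 and 398 RPKM in FCSPG, 358, 456 and 361 RPKM in FCPG, and 298, 285, 334 and 340 RPKM in WT. All FCPG libraries lay above all WT libraries while FCSPG overlapped WT. The log2 fold changes of Atp5b were 0.12 ± 0.13 in FCSPG over WT and 0.32 ± 0.14 in FCPG over WT, with adjusted p-values of 0.723 and 0.214 in edgeR. Atp5e, the epsilon subunit of the head, had 36.7, 34.98, 22.5 and 23.6 RPKM in FCSPG, 30.1, 20.8 and 15.1 RPKM in FCPG, and 22.1, 15.7, 11.3 and 21.5 RPKM in WT. Its log2 fold change over WT was 0.74 ± 0.27 in FCSPG, the highest of the complex, and the FCSPG libraries lay just above those of WT. Atp5mpl, a small membrane subunit with the smallest p of the complex in FCSPG over WT, had 96.6, 75.7, 71.9 and 71.7 RPKM in FCSPG, 69.98, 60.97 and 55.3 RPKM in FCPG, and 60.5, 49.0, 48.4 and 69.4 RPKM in WT. All its FCSPG libraries lay above all FCPG and all WT libraries, with a log2 fold change of 0.47 ± 0.15 over WT and an adjusted p of 0.446 in edgeR.

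The identical mature c subunit is made from 3 genes. Atp5g3 averaged 180 ± 41.4 RPKM in FCSPG, 174 ± 32.6 RPKM in FCPG and 131 ± 14.2 RPKM in WT. Atp5g2 averaged 124 ± 21.9, 102 ± 13.9 and 91.8 ± 12.1 RPKM, and Atp5g1 averaged 21.7 ± 3.15, 19.99 ± 3.89 and 17.5 ± 2.50 RPKM, in FCSPG, FCPG and WT (SD, n = 4, 3 and 4). The order of the 3 genes was the same in all groups, but Atp5g2 shares 36.7% of its 50-base words with other genes, so its level and place are uncertain. Atpif1, the inhibitor of ATP hydrolysis by complex V and no member by the rule, averaged 54.4 ± 8.19 RPKM in FCSPG, 44.9 ± 5.53 RPKM in FCPG and 51.1 ± 7.25 RPKM in WT, with a log2 fold change of 0.09 ± 0.14 in FCSPG over WT.

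**Figure D2:**
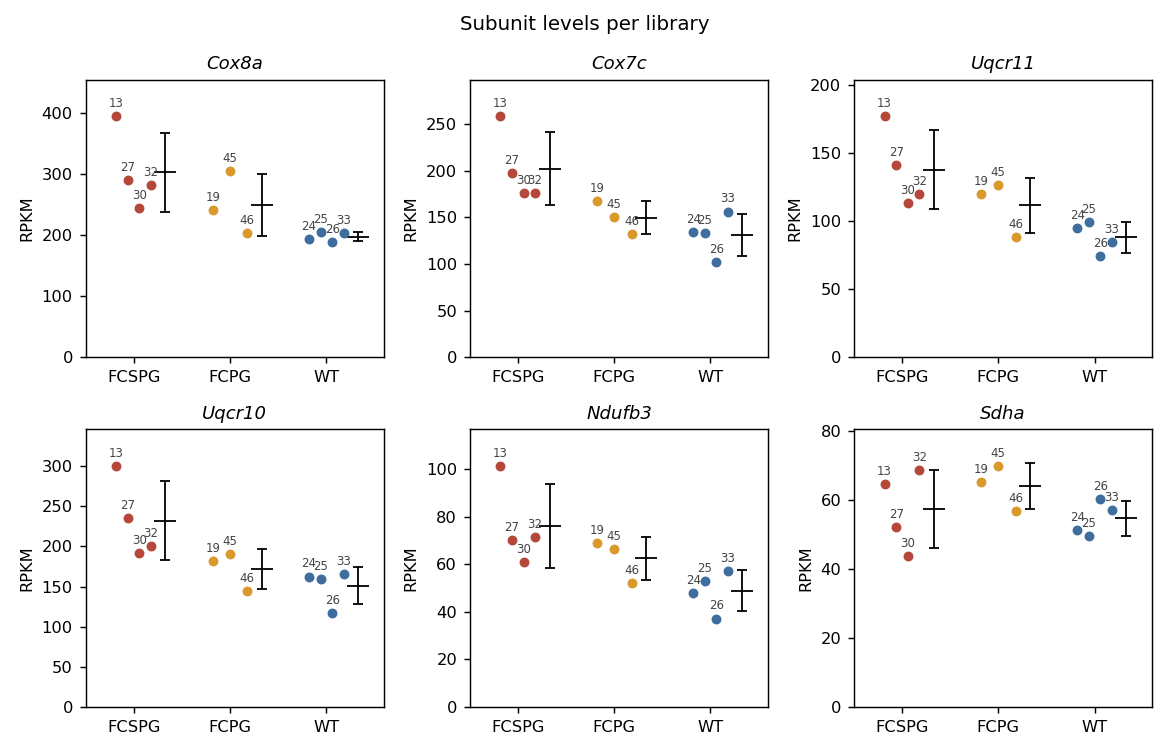
RPKM of Cox8a, Cox7c, Uqcr11, Uqcr10, Ndufb3 and Sdha in each library, labelled by its number, with the group mean and SD as a bar. The FCSPG libraries lie above all WT libraries in the first 5 genes and overlap WT in Sdha, and FCSPG library 13 is the highest library in each of those 5.

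The authors' deposited table for FCSPG and WT, for which the submitters' processing notes name DESeq2, lists 42 subunits, all higher in FCSPG, among genes with an unadjusted p under 0.05, against 6.14% of genes with a count in those libraries. It gives an adjusted p under 0.05 to 5 of them, all higher in FCSPG, against 1.12% of genes with a count in those libraries, and to 0 that were lower, against 0.509%. In the authors' deposited table these were Cox8a (adjusted p = 0.0116), Uqcr11 (0.0174), Cox7c (0.0305), Uqcr10 (0.0348) and Ndufb3 (0.0487). The authors' deposited tables list 5 subunits as higher in FCPG than in WT, against 7.32% of genes, and 8 as higher in FCSPG than in FCPG, against 1.92%, with no adjusted p under 0.05, where 2.62% and 1.48% of genes had one in the higher and lower direction for FCPG over WT and 0% for FCSPG over FCPG. Their smallest adjusted p in the authors' deposited tables was 0.187 for Atp5g3 in FCPG over WT and 0.886 in FCSPG over FCPG.

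In FCPG over WT, the nuclear median was nearer to that of all genes tested than in FCSPG over WT. A log2 fold change above 0 was found for 69 of 83, where 50.2% of all genes tested had one, and the median was 0.13, against 0.0019 over all genes. With coding lengths under 400 bases, the median was 0.19 over 38 subunits (32 above 0), against -0.06 over other genes (43.8% above 0). From 400 to under 800 bases it was 0.09 over 29 subunits (22 above 0), against -0.02 (47.6%). From 800 to under 1600 bases it was 0.12 over 12 subunits, against 0.02. In these bins the subunit medians lay above those of other genes, as in FCSPG over WT. An unadjusted p under 0.05 with a higher level was given to 5 of 83, namely Sdhd, Atp5g3, Atp5b, Cox5b-ps and Ndufb6, against 13% of all genes, and to 0 with a lower level, against 8.88%. The groups did not overlap, with FCPG higher, for 7 of 83 against 7.57% of all genes, and with FCPG lower for 0 against 6.98%. Both counts are near or under the background. The F1 head of complex V had the highest median of the larger parts, 0.31, with 3 of its 5 genes (Atp5a1, Atp5b and Atp5c1) above WT in every FCPG library. The complex medians were 0.09 for I, 0.19 for II, 0.19 for III, 0.10 for IV and 0.19 for V. With the visceral endoderm markers as a covariate, the nuclear median was -0.11 and 15 of 83 were above 0. The mean log2 level of these markers was 5.90 to 9.13 in FCPG and 0.593 to 5.35 in WT. As these ranges do not overlap, genotype and covariate cannot be told apart in this comparison. These markers summed to 1603, 16780 and 4439 CPM in FCPG libraries 19, 45 and 46, of which library 45 had the highest and library 46 the lowest summed nuclear subunits. With embryo sex as a covariate the median was 0.04 and 54 of 83 were above 0, where both male FCPG libraries meet no male WT library. Without FCPG library 45 the median was 0.05, with 52 above 0, and without FCPG library 46 it was 0.24.

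In FCSPG over FCPG, 72 of 83 nuclear subunits had a log2 fold change above 0, against 49.2% of all genes tested, with a median of 0.23 against -0.0078. With coding lengths under 400 bases, 78.3% of other genes and 37 of 38 subunits were above 0. From 400 to under 800 bases, 65.9% of other genes and 27 of 29 subunits were. An unadjusted p under 0.05 was given to 12 with a higher level in FCSPG, against 4.77% of all genes, and to 1 with a lower level, against 6.67%. The groups did not overlap, with FCSPG higher, for 8 of 83 against 2.33% of all genes. Ndufa2, an accessory subunit of complex I, had 206, 180, 136 and 137 RPKM in FCSPG, 132, 105 and 94.0 RPKM in FCPG, and 114, 122, 91.0 and 122 RPKM in WT. Uqcrh, the hinge protein that binds cytochrome c1 in complex III, had 169, 127, 116 and 119 RPKM in FCSPG, 107, 96.0 and 76.2 RPKM in FCPG, and 106.2, 115, 81.2 and 105 RPKM in WT. In both genes the FCSPG libraries lay above all libraries of FCPG and of WT, while FCPG and WT overlapped. The log2 fold changes over FCPG were 0.58 ± 0.18 for Ndufa2 and 0.51 ± 0.17 for Uqcrh, each with an adjusted p of 0.435 in edgeR. Atp5j2, a membrane subunit of complex V, averaged 63.5 ± 7.48 RPKM in FCSPG, 49.8 ± 7.13 RPKM in FCPG and 49.8 ± 5.78 RPKM in WT (SD, n = 4, 3 and 4), and its FCSPG libraries lay above all others. Cox6c, a membrane subunit of complex IV, had 51.4, 41.98, 37.0 and 39.1 RPKM in FCSPG, 39.9, 25.4 and 24.8 RPKM in FCPG, and 36.7, 35.7, 29.9 and 34.8 RPKM in WT. Its log2 fold change over FCPG was 0.50 ± 0.18, with an adjusted p of 0.435 in edgeR, and without FCPG library 19, which overlapped FCSPG, it was 0.77 and passed the adjusted test, where 1063 of all genes tested passed as well. Without FCSPG library 13, 2 nuclear subunits kept an unadjusted p under 0.05 in this comparison, where 520 of 16461 genes tested were higher at such a p. Without FCPG library 46 the median was 0.11. The comparisons share their FCSPG, FCPG or WT libraries, so their values are not independent.

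**Figure D3:**
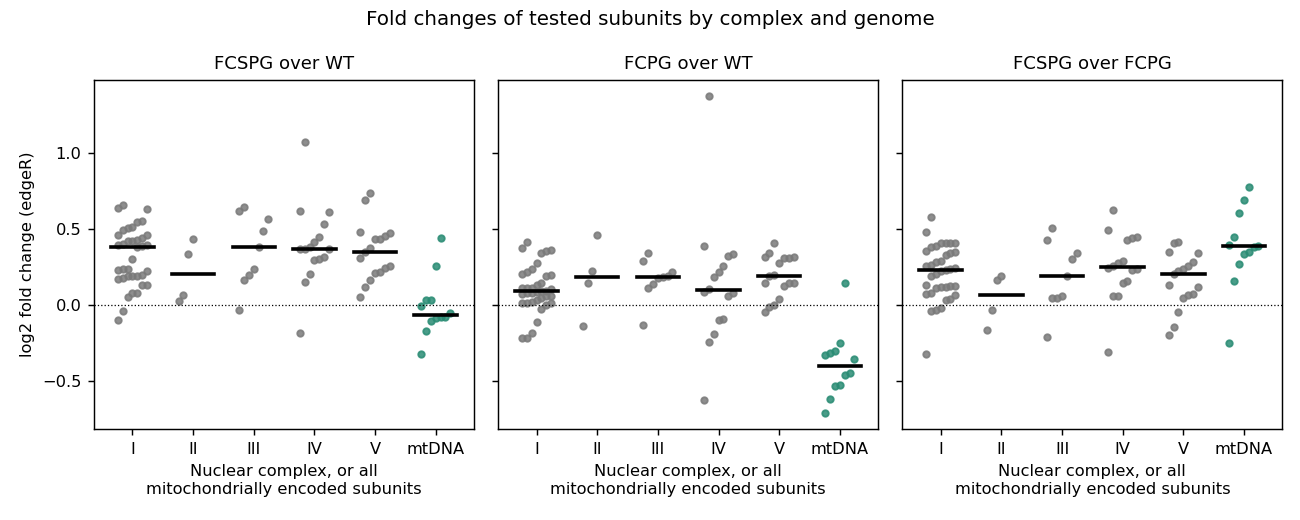
Log2 fold change of each tested subunit in the 3 comparisons, by nuclear complex (grey) and for the mitochondrially encoded subunits (green), with the median as a bar. The nuclear medians lie between 0.20 and 0.38 in FCSPG over WT, and the mitochondrial median lies at -0.07 there, at -0.40 in FCPG over WT and at 0.39 in FCSPG over FCPG.

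The mitochondrially encoded subunits had medians on the other side of 0 from the nuclear ones in both comparisons with WT, and on the same side in FCSPG over FCPG, and the difference between both sets was not tested. In FCSPG over WT, 4 of the 12 tested had a log2 fold change above 0 and the median was -0.07. In FCPG over WT, 1 of 12 was above 0 and the median was -0.40, and in FCSPG over FCPG, 11 of 12 were above 0 with a median of 0.39. In edgeR none had an unadjusted p under 0.05 in any comparison, and the smallest adjusted p was 0.24. The authors' deposited table for FCSPG and FCPG lists mt-Co2 and mt-Co3, with unadjusted p-values of 0.0481 and 0.0495 and an adjusted p of 0.886 for each. The mitochondrial genes took a mean of 1.01% ± 0.130 of counts in FCSPG (SD, n = 4), 0.778% ± 0.202 in FCPG (n = 3) and 1.07% ± 0.301 in WT (n = 4). By library the share was 1.17, 0.849, 0.999 and 1.02% in FCSPG, 0.935, 0.850 and 0.550% in FCPG, and 1.04, 1.51, 0.866 and 0.881% in WT. WT library 25 was the highest and FCPG library 46 the lowest. The mean share was 0.892% in FCPG without library 46 and 0.929% in WT without library 25. Without WT library 25 the median in FCSPG over WT was 0.17, with 1 of 12 below 0, and the median in FCPG over WT was -0.19. In FCPG over WT the median was -0.66 with embryo sex and -0.63 with visceral endoderm markers as a covariate, and without FCPG library 46 the median in FCSPG over FCPG was 0.16. Without FCPG library 19, mt-Co2 passed the adjusted test in FCPG over WT, with a log2 fold change of -0.97, where 2736 of all genes tested passed as well.

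The ratio of mitochondrial to nuclear subunit counts was 0.870, 0.742, 0.995 and 0.860 in FCSPG, 0.831, 0.726 and 0.558 in FCPG, and 1.06, 1.51, 0.945 and 0.847 in WT. All FCPG values lay below all WT values, while FCSPG overlapped both. This ratio joins genes of very different abundance, and 3 transcripts, mt-Co1, mt-Nd1 and mt-Cytb, carried most of the mitochondrial counts.

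Subunit 1 of cytochrome c oxidase, mt-Co1, which holds the site of oxygen reduction, had 3117, 2197, 2766 and 2593 RPKM in FCSPG, 2278, 2314 and 1278 RPKM in FCPG, and 2731, 4094, 2276 and 2212 RPKM in WT. Its log2 fold changes were -0.08 ± 0.23 in FCSPG over WT and -0.53 ± 0.25 in FCPG over WT, with adjusted p-values of 0.895 and 0.240 in edgeR. The complex I subunit mt-Nd1 had 2651, 1763, 1684 and 2275 RPKM in FCSPG, 1938, 1722 and 1269 RPKM in FCPG, and 1951, 2750, 1752 and 1732 RPKM in WT. Cytochrome b, mt-Cytb, the single mitochondrial subunit of complex III, had 1539, 1134, 1274 and 1255 RPKM in FCSPG, 1211, 1156 and 620 RPKM in FCPG, and 1351, 1866, 1103 and 1170 RPKM in WT. All groups overlapped in these genes, and FCPG library 46 was the lowest library in each.

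The remaining mitochondrial genes fell into 2 ranges of level. Of complex I, mt-Nd2 averaged 844 RPKM in FCSPG, 699 RPKM in FCPG and 892 RPKM in WT. Next, mt-Nd5 averaged 431, 385 and 484 RPKM, mt-Nd4 averaged 444.1, 338 and 461 RPKM, and mt-Nd6 averaged 500, 396 and 489 RPKM in FCSPG, FCPG and WT. The gene mt-Nd6 is encoded on the opposite strand to the other subunits, and whether counting used strand is not stated, so its level is uncertain. Far lower were mt-Co2 with 34.6, 22.7 and 34.8 RPKM, mt-Co3 with 19.6, 12.1 and 14.4 RPKM, and mt-Atp6 with 12.4, 9.48 and 15.6 RPKM. Lowest were mt-Nd4l with 3.68, 4.37 and 3.97 RPKM, mt-Nd3 with 3.05, 1.77 and 2.57 RPKM, and mt-Atp8, which failed the filter, with 74 counts over all libraries. Within a single enzyme, complex IV, the level of mt-Co1 was far above that of mt-Co2 and mt-Co3 in every group, although all 3 come from the same precursor transcript.

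Most of these low genes share their sequence with the nuclear genome, and the part this plays in their level was not tested. Every 50-base word of each transcript was looked up in all other annotated transcripts that do not overlap it (GENCODE M21). The share found elsewhere was 100% for mt-Co2, 99.9% for mt-Co3, 99.5% for mt-Atp6, 98.8% for mt-Nd4l and 98.0% for mt-Nd3. It was 62.2% for mt-Nd4, 51.1% for mt-Co1, 8.19% for mt-Nd2 and 7.61% for mt-Nd5, and 0% for mt-Nd1, mt-Cytb, mt-Nd6 and mt-Atp8. For mt-Co2, mt-Co3, mt-Atp6, mt-Nd3, mt-Nd4l and mt-Nd4 nearly all of it lies in a run of 7 adjacent pseudogenes on chromosome 1, between positions 24650616 and 24655278 on the minus strand of mm39 in the deposited annotation, while mt-Co1 shared 28.7% of its words with Gm29216 of that run and 27.5% with Gm13340 on chromosome 2. These pseudogenes held counts of their own, 29.4 to 59.2 CPM in FCSPG, 19.5 to 34.4 CPM in FCPG and 38.2 to 76.2 CPM in WT. How reads that match both places were counted is not stated in the sources used here, so the levels of mt-Co2, mt-Co3, mt-Atp6, mt-Nd4l, mt-Nd3, mt-Nd4 and mt-Co1 are uncertain, and their ratios to each other are not a measure of transcript levels. For mt-Atp8, which was also low, no word was shared with annotated transcripts, and sequence outside them was not searched. In the run on chromosome 1, the copies of mt-Atp6 and mt-Co2 leave a gap between positions 24653732 and 24653966. Whether this gap holds a copy of mt-Atp8 was not tested.

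The first 60 bases of mt-Co3 and of its nuclear copy Gm28437 on chromosome 1 show their likeness, and the copies had 0 differences over 783 bases. Over 1545 bases, mt-Co1 and Gm13340 on chromosome 2 had 37 differences, and bases 460 to 519 of both transcripts are shown, with the differing bases in capitals.
mt-Co3: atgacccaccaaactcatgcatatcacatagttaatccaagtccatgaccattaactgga
Gm28437: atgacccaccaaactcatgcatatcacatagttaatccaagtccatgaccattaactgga
mt-Co1: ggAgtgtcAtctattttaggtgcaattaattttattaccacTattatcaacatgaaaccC
Gm13340: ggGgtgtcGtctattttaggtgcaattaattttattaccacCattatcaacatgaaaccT

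**Figure D4:**
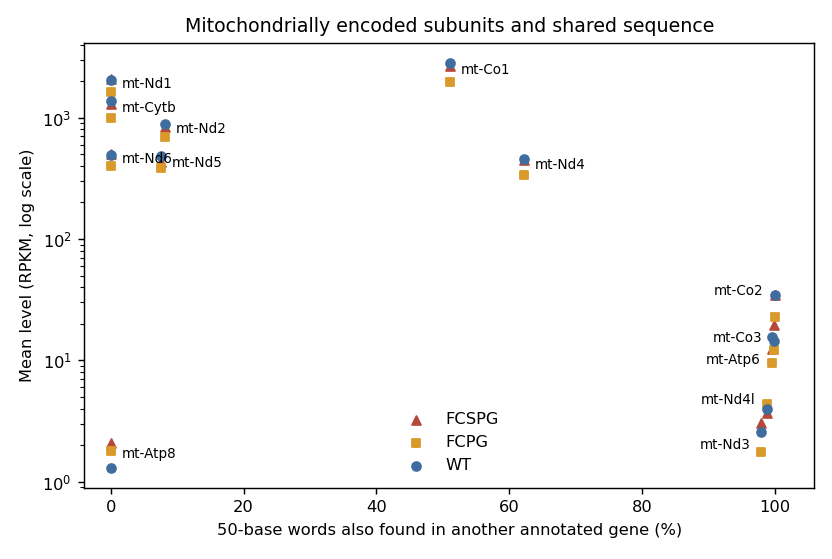
Mean RPKM of each mitochondrially encoded subunit (log scale) in FCSPG (triangles), FCPG (squares) and WT (circles) against the percentage of its 50-base words that occur in another annotated gene. The 5 genes with at least 98.0% shared words have the lowest levels beside mt-Atp8, which shares none.

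The 5 tested genes with under 10% of words shared had a median log2 fold change of -0.08 in FCSPG over WT, -0.33 in FCPG over WT and 0.34 in FCSPG over FCPG. Among nuclear subunits, the 61 tested with under 5% of words shared had a median of 0.32 in FCSPG over WT, with 57 above 0. Cox5b-ps, named as a pseudogene but listed as protein-coding, shared 61.9% of its words with Cox5b, and both had the FCSPG libraries above all WT libraries.

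Several complex IV subunits have tissue-restricted isoforms, which replace the common ones in heart and skeletal muscle, lung or testis. Cox4i1, the common isoform of subunit 4, averaged 229 ± 42.8 RPKM in FCSPG, 195 ± 33.4 RPKM in FCPG and 183 ± 23.8 RPKM in WT. Cox4i2, the oxygen-responsive isoform known from lung, averaged 18.2 ± 3.94, 13.4 ± 13.4 and 20.8 ± 5.8 RPKM in FCSPG, FCPG and WT, and its FCPG libraries spread from 3.82 RPKM in library 45 to 28.8 RPKM in library 46. Cox7a1, the muscle isoform of subunit 7a, had 4.58, 1.60, 1.10 and 2.82 RPKM in FCSPG, 1.68, 5.85 and 1.82 RPKM in FCPG, and 1.38, 0.44, 0.65 and 2.32 RPKM in WT, with 238 counts in all, and its groups overlapped. The testis isoform Cox6b2 averaged 6.74 ± 1.51, 4.35 ± 0.845 and 4.65 ± 0.574 RPKM in FCSPG, FCPG and WT, with log2 fold changes of 0.53 ± 0.23 over WT and 0.63 ± 0.25 over FCPG in FCSPG and adjusted p-values of 0.446 and 0.435 in edgeR. Cox6a2 and Cox8b, both muscle isoforms, had 0 counts in every library, and Cox7b2 and Cox8c had 7 and 1 counts over all libraries. The second gene listed under the symbol Atp5o also had 0 counts. Cardiac muscle markers summed to 11.3 to 13.3 CPM in FCSPG, 8.44 to 20.9 CPM in FCPG and 5.18 to 9.62 CPM in WT.

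Cox7a2l, a relative of subunit 7a that joins complexes III and IV into supercomplexes, had 94.5, 65.6, 63.2 and 61.9 RPKM in FCSPG, 50.05, 61.5 and 45.3 RPKM in FCPG, and 65.1, 74.9, 53.7 and 53.7 RPKM in WT. Every FCSPG library lay above every FCPG library, and WT overlapped both. Its log2 fold change was 0.45 ± 0.18 in FCSPG over FCPG, with an adjusted p of 0.435 in edgeR. The X-linked subunits Ndufa1, Ndufb11 and Cox7b had log2 fold changes of 0.55 ± 0.17, 0.45 ± 0.15 and 0.37 ± 0.12 in FCSPG over WT. No subunit passed the adjusted test with embryo sex as a covariate or without it, so that outcome cannot show whether sex plays a part in these genes.

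The subunits differed by size. Over the 82 nuclear subunits with a coding length in GENCODE M21, log2 fold change in FCSPG over WT had, with log2 coding length, Pearson's r = -0.679 and Spearman's rho = -0.724, across genes, which are not independent replicates. In FCSPG over FCPG the values were -0.676 and -0.661, and in FCPG over WT they were -0.049 and -0.070. Over the other 13988 tested genes with a coding length the coefficients were smaller, -0.168 and -0.290 in FCSPG over WT. For coding lengths under 400 bases the median log2 fold change in FCSPG over WT was 0.47 over 38 subunits, against 0.20 over 591 other genes. From 400 to under 800 bases it was 0.30 over 29 subunits against 0.13 over 2411 other genes, and from 800 to under 1600 bases 0.135 over 12 against 0.04 over 5065. At 1600 bases or more it was 0.07 over 3 subunits and -0.10 over 5921 other genes. In FCSPG over FCPG, subunits under 400 bases had a median of 0.29, next to 0.28 over other genes of that size. The part that transcript size plays in the values of FCSPG libraries was not tested.

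**Figure D5:**
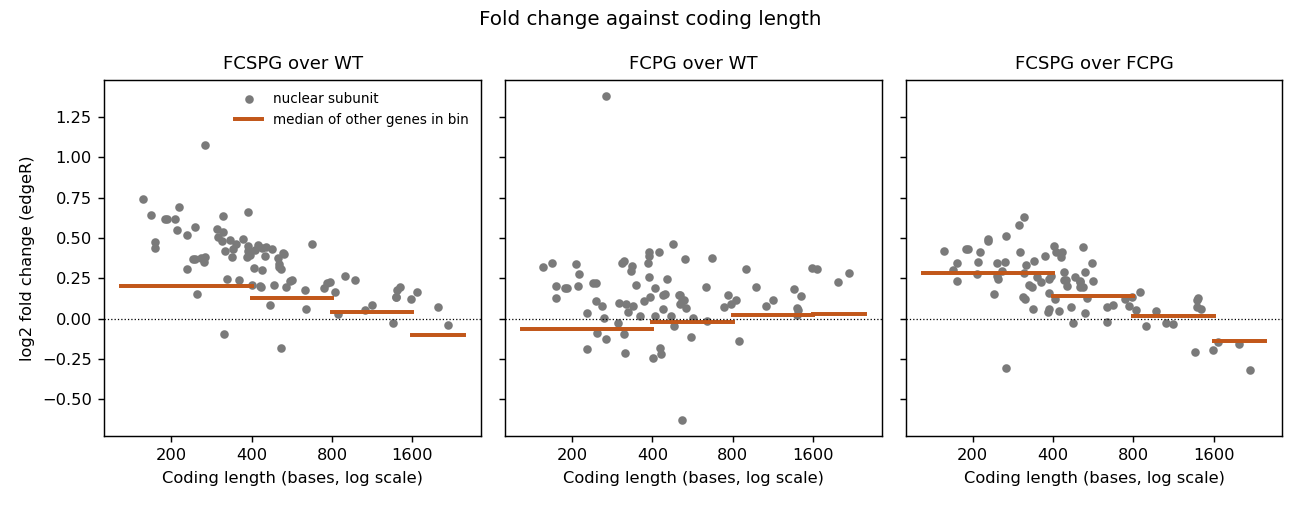
Log2 fold change of each nuclear subunit (grey points) against coding length (log scale) in the 3 comparisons, with the median of all other tested genes in 4 bins of length (orange lines). In FCSPG over WT the short subunits lie highest and above the median of other genes under 400 bases, which is 0.20, and in FCPG over WT no trend with length is seen.

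Promoters of the nuclear subunits were searched for motifs known from respiratory genes and for general promoter elements. RefSeq promoters, 250 bases before to 50 after the start (GRCm38.p6), were found for 70 of the nuclear subunits. Both strands were searched, and 1 pair of the 138 matches to different motifs overlapped. The site of nuclear respiratory factor 1 (NRF1, a transcription factor of respiratory genes), spelled GCGCA, any base and GCGC, was in 24.3% of subunit promoters, against 10.4% of 11603 other tested genes and 5.2% of all 27025 genes with an entry. The ETS site CCGGAAG, which GABP (nuclear respiratory factor 2) binds, was in 24.3%, against 18.6% and 9.9%. The YY1 site AAGATGGCG was in 7 of 70, or 10%, against 3.2% and 1.6%, and the oestrogen-related receptor site TCAAGGTCA in 2.9% (Atp5g3 and Sdhd), against 0.3% and 0.5%. The Sp site GGGCGGG was in 34.3%, against 51.1% and 27.9%, and CCAAT in 42.9%, against 42.9% and 41.1%.

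Fold changes with and without a match were set side by side, with no test. In FCSPG over WT the median log2 fold change was 0.40 for the 17 with an NRF1 match and 0.37 for the 51 tested without one, and for the ETS site it was 0.38 for 17 and 0.37 for 51. In FCSPG over WT the Sp values were 0.31 and 0.38. In FCPG over WT the values were 0.15 and 0.11 for NRF1, 0.20 and 0.12 for ETS, and 0.20 and 0.11 for CCAAT. They were 0.44 and 0.12 for the oestrogen-related receptor site, which only 2 subunits hold. For YY1 and Sp they were lower with a match, 0.106 and 0.145 for YY1 and 0.11 and 0.14 for Sp. In FCSPG over FCPG the oestrogen-related receptor site had 0.0081 with a match and 0.24 without. Shown here are the 150 bases before the start of the 4 subunits with an NRF1 match there and the smallest p in FCSPG over WT, and of Uqcr11 with its ETS match, each on its own strand, with the matches to any of the motifs in capitals.
Atp5g2, chr15:102671048-102671197, minus strand: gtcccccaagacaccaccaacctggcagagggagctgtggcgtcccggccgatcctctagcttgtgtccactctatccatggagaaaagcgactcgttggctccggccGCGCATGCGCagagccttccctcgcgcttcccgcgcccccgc
Ndufa5, chr6:24527691-24527840, minus strand: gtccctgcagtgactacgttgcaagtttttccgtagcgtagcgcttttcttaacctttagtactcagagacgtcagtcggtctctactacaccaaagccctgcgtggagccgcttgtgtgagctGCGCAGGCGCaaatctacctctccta
Ndufb4, chr16:37654369-37654518, minus strand: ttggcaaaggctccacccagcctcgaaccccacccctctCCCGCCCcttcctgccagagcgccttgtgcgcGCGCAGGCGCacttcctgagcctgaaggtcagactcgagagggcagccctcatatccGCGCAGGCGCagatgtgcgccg
Ndufs6, chr13:73328483-73328632, minus strand: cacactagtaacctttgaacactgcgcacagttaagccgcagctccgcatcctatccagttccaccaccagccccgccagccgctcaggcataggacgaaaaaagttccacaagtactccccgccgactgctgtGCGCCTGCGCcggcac
Uqcr11, chr10:80406822-80406971, minus strand: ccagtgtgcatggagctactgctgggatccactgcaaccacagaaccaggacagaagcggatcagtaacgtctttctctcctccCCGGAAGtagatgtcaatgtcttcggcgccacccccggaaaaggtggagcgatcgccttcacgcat

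Genes that serve the chain without being part of it were read from 12 lists with 172 tested genes, and edgeR called none of them in any comparison. DESeq2's Wald test called 5, all higher in FCPG than in WT: Polg, Esrra, the dicarboxylate carrier Slc25a10, the chaperone Trap1 and the fusion protein Mfn1. Of all 16572 genes tested, it called 1029 as higher in that comparison, so these lists do not stand above the other genes. In FCSPG over WT, all 22 tested genes of protein import and folding had a log2 fold change above 0, with a median of 0.24, and 6 had an unadjusted p under 0.05 with a higher level, against 49.9% and 6.24% of all genes. The lists were not compared with other genes of like coding length, nor recomputed with libraries left out or with covariates. Timm8b, a small carrier of import through the intermembrane space, averaged 135 ± 17.4 RPKM in FCSPG, 107 ± 15.5 RPKM in FCPG and 96.4 ± 7.11 RPKM in WT, with a log2 fold change of 0.49 ± 0.13 in FCSPG over WT. Assembly factors had 14 of 16 above 0 for complex I, 13 of 15 for complexes II, III and V, and 18 of 20 for complex IV, with medians of 0.18, 0.12 and 0.23. Fmc1, an assembly factor of complex V, averaged 25.2 ± 6.06, 18.9 ± 3.93 and 15.4 ± 2.42 RPKM in FCSPG, FCPG and WT, with a log2 fold change of 0.71 ± 0.21 in FCSPG over WT. The citric acid cycle had a median of 0.06, with 10 of 14 above 0, and pyruvate dehydrogenase and its regulators -0.09, with 4 of 12 above 0. The other lists had 11 of 11 above 0 for carriers and porins, 9 of 13 for cristae and dynamics, 13 of 19 for RNA processing, 6 of 13 for nuclear regulators, and 1 of 1 for the electron carrier cytochrome c, with medians of 0.20, 0.19, 0.03, -0.08 and 0.06.

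Of the genes that copy and transcribe mitochondrial DNA, in FCSPG over WT 7 of 16 were above 0, with a median of -0.0031, in FCPG over WT 6 of 16, with a median of -0.10, and in FCSPG over FCPG 10 of 16, with a median of 0.11. Tfam, which packages and transcribes mitochondrial DNA, averaged 30.8 ± 3.91 RPKM in FCSPG, 26.2 ± 4.73 RPKM in FCPG and 29.7 ± 1.42 RPKM in WT. Polrmt, the mitochondrial RNA polymerase, averaged 7.88 ± 0.891, 9.18 ± 0.575 and 8.84 ± 0.380 RPKM. Polg, the catalytic subunit of the mitochondrial DNA polymerase, averaged 25.5 ± 6.75, 45.2 ± 20.6 and 18.2 ± 5.27 RPKM in FCSPG, FCPG and WT, with a log2 fold change of 1.31 ± 0.34 in FCPG over WT and an adjusted p of 0.104 in edgeR. Of the nuclear regulators, Nrf1 averaged 7.43 ± 0.213, 6.49 ± 1.01 and 7.20 ± 0.253 RPKM in those groups. Esrra, a nuclear receptor that acts on respiratory genes, averaged 7.30 ± 1.99, 10.3 ± 6.72 and 3.95 ± 0.983 RPKM, with log2 fold changes of 0.89 ± 0.35 in FCSPG over WT and 1.38 ± 0.37 in FCPG over WT and adjusted p-values of 0.446 and 0.109 in edgeR. Mpc1, a subunit of the mitochondrial pyruvate carrier, averaged 0.334 ± 0.0979 RPKM in FCSPG, 0.321 ± 0.0340 RPKM in FCPG and 0.756 ± 0.263 RPKM in WT, and in both lines all libraries lay below all WT libraries. Of the 12 genes of its list, 1 lay below WT in this way in FCSPG and 2 in FCPG, against 3.35% and 6.98% of all genes tested. Its level was low in every group, which limits what can be said of Mpc1. The log2 fold changes of Mpc1 were -1.18 ± 0.36 in FCSPG over WT and -1.23 ± 0.40 in FCPG over WT, with adjusted p-values of 0.446 and 0.128 in edgeR.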

How the data were processed

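PolyA RNA of 11 tailbud libraries went into strand-keeping mRNA libraries, per the labels' protocols. The authors aligned reads with HISAT2 to mm39, counted them per gene with featureCounts and used DESeq2; the submitters' processing notes name these tools. Their versions, annotation, strand and multi-mapping settings are not given in the sources used here. The deposited count table holds whole read counts for 56748 genes, and 0 of its library columns were left unused. The authors' deposited tables also give log2 fold changes, p-values and adjusted p-values for genes with an unadjusted p-value under 0.05. They were turned here to mutant over WT and FCSPG over FCPG. Deposited FPKM values were not used.

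Counts were tested with edgeR 4.0.16 (quasi-likelihood F test, two-sided, TMM, filterByExpr, 1 term for 3 groups, all 11 libraries, R 4.3.3), with Benjamini-Hochberg adjustment over 16572 genes and a threshold of 0.05. These genes hold at least 99.88% of each library's counts. edgeR's common biological variation was 0.325, and this spread sets how small a difference could be seen. Subunits were read out of this fit, and medians and counts over them carry no p. RPKM and CPM were computed from the counts with TMM factors. The test was tried on simulated counts. Alternatives were DESeq2 size factors, library sizes without mitochondrial genes, DESeq2 1.42.0, limma-voom (limma 3.58.1), other filters, the 2 groups alone, covariates and each library left out.

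Sharing of sequence was counted as 50-base words in GENCODE M21 transcripts, and coding length as the longest coding sequence there. Promoters are RefSeq's, GRCm38.p6. Of the 177 symbols in 12 mitochondrial lists, 1 was not found. Protein sequences were not analysed here.

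The members, the lists and the rule for named genes were chosen with earlier results of these data known. The rule names all mitochondrial genes and, per nuclear complex, the highest RPKM, the 2 smallest p-values in each comparison and the smallest p against the complex's median. It adds isoforms, c ring genes, X-linked and untested members, Fgfr1, Atpif1 and, per list, the smallest p-values in each direction. The text uses a part of them. Atp5e, Atp5a1, Atp5c1, Uqcrc2, Tfam, Polrmt and Nrf1 were added after their values were seen.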

Additional observations from a re-analysis of the deposited data

Results flagged for a closer look

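In groups of 4 libraries, a library was marked when its gap to the nearest other library as a share of the group's range passed the critical value of Dixon's test. Chance gives this in about 1 group in 20, and 4 of 88 groups were marked over the genes the text was to name. Cox7a2l had 94.5 RPKM and mt-Nd6 had 715.8 RPKM in FCSPG library 13, each far above the other FCSPG libraries. Uqcr10 had 117.2 RPKM and Ndufa1 had 40.4 RPKM in WT library 26, each far below the other WT libraries. Library 26 also had the lowest visceral endoderm marker level, 125 CPM. Whether these go together was not tested.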

How the results depend on the processing

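Counts and medians from the test across genes were recomputed under 9 other settings and with each of the 11 libraries left out, mitochondrial shares with each library of their group left out and motif shares in a shorter window. The counts over subunits and Spearman's coefficient were added as alternatives chosen after seeing the data. The cause of the moves below was not tested. Genes called numbered 41, 1477 and 1 with DESeq2's Wald test in FCSPG over WT, FCPG over WT and FCSPG over FCPG, and 403 in FCPG over WT without a filter on low counts, against 0 in edgeR. With visceral endoderm markers as a covariate, FCSPG over WT had 1 nuclear subunit higher at an unadjusted p under 0.05 (39 without it). Of all genes tested, 99 were higher at such a p (1034 without it). The medians were 0.155 for nuclear subunits, 0.163 for complexes I and IV (0.1626 and 0.1629) and 0.143 for complex V. Under the same covariate FCPG over WT had 15 of 83 above 0 (69 without it), 0 at an unadjusted p under 0.05, medians of -0.1085 for nuclear subunits, -0.1537 for complex I, -0.04438 for complex II, -0.1787 for complex IV and -0.09144 for complex V, and a Spearman's coefficient with coding length of 0.237. The marker levels do not overlap between FCPG and WT, so genotype and covariate cannot be told apart there. With this covariate, FCSPG over FCPG had 22 at an unadjusted p under 0.05 (12 without it). Of all genes tested, 28 in FCPG over WT and 547 in FCSPG over FCPG were higher at such a p with this covariate, against 2152 and 791 without it. In FCPG over WT the count of nuclear subunits was 3 with limma-voom, 3 without a filter and 0 with embryo sex as a covariate, against 5, and in FCSPG over FCPG it was 5 with embryo sex. All genes higher at such a p numbered 1814, 2582 (of 30619), 898 and 338 in the same order. In 150 bases around the start, CCAAT was in 28.6% of promoters.

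With 1 library left out, genes called ran from 0 to 4 in FCSPG over WT (4 without WT library 33), 0 to 2736 in FCPG over WT and 0 to 1063 in FCSPG over FCPG, the highest both without FCPG library 19. Subunits called ran from 0 to 0, 0 to 1 and 0 to 1 in the same order: without FCPG library 19 these were mt-Co2 in FCPG over WT and Cox6c in FCSPG over FCPG. Nuclear subunits higher at an unadjusted p under 0.05 ran from 16 (without FCSPG library 13) to 51 (without FCSPG library 30) in FCSPG over WT, 22 without WT library 26, from 0 to 12 in FCPG over WT (8 without FCSPG library 13), and from 2 (without FCSPG library 13) to 21 in FCSPG over FCPG (6 without FCSPG library 27). All genes tested that were higher at such a p numbered 369, 1400 and 468 in these FCSPG over WT settings. In FCPG over WT they numbered 1542 without WT library 24 (0 subunits), 2126 without FCPG library 46 (12 subunits) and 2032 without FCSPG library 13. In FCSPG over FCPG they numbered 520, 549 (without FCSPG library 30) and 426. Mitochondrial subunits below 0 ran from 1 (without WT library 25) to 10, 9 to 12, and 1 to 2 (without FCPG library 46). Spearman's coefficient of log2 fold change with coding length in FCPG over WT ran from -0.294 to 0.169. No paired analysis was possible because the columns carry library numbers that match no replicate number of the sample titles. Counts under 100 over all libraries, as in mt-Atp8, limit what can be said of such genes.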
